A study of Mus musculus with 4 samples.

Results

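The genes described here are 10 S100 calcium-binding protein genes, S100a1, S100a4, S100a6, S100a8, S100a9, S100a10, S100a11, S100a13, S100a16 and S100b, each found by its symbol among the 22186 genes of the expression table. They were measured by RNA sequencing in MC38, a mouse colon carcinoma cell line, stably carrying TetOn-CXCL14, a construct that expresses the chemokine CXCL14 when the antibiotic doxycycline is present. All libraries came from this modified line: 2 control cultures received the solvent PBS, and 2 cultures received doxycycline at 1 µg/mL, and all were harvested after 72 h. No culture without the construct received doxycycline, so effects of the drug and of CXCL14 cannot be told apart, and whether the line is a single clone is not given in the sources used here. The series text calls the 2 samples of a group biological replicates.

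S100 proteins are small proteins that bind calcium through a pair of EF-hand loops, mostly form dimers, and on binding calcium expose a surface that grips partner proteins. Inside the cell they act on annexins, on the cytoskeleton and on calcium-handling proteins. Several are also released and are sensed by receptors such as RAGE (Ager) and TLR4. In tumour cells S100A4 is known for its link to motility and metastasis, and S100A8 and S100A9 are best known as abundant proteins of neutrophils and monocytes.

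Levels are in TPM, which divides reads by transcript length and scales every library to one total, so genes can be compared with each other. Group means are given with the SD of n = 2 libraries. Neither deposited table holds read counts, so depth is unknown and no counting interval can be given. Between 14330 and 14678 genes were above 0 in a library. Cxcl14, the gene that checks the labels, was at 27.3 to 29.2 TPM in control libraries against 385 to 391 TPM under doxycycline. The labels call the line a colon cancer cell, yet all 11 listed markers of colon epithelium had a mean below 1 TPM, with Cdh1, Krt19 and Cdx2 at 0 in all 4 libraries.

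Of the 10 S100 genes, 7 had a mean of at least 1 TPM and were tested, as were 11359 genes in all, with limma on log2(TPM + 1) and Benjamini-Hochberg adjustment over all of them. S100a8 was nearly lost under doxycycline, S100a4 fell by 45.1% in mean TPM, and S100a10, S100a1 and S100a13 fell by 23.0% to 28.7%. S100a11 fell by 15.3%, near the limit of the test, and S100a6 did not pass. At an adjusted p under 0.05, 0 of the 7 were higher and 6 were lower, where 29.0% and 35.4% of all genes tested were higher and lower, 64.4% together. In those 6 both doxycycline libraries lay below both controls, an order that 45.0% of all genes tested also showed. The median log2 change was -0.48 over the 7 genes and -0.043 over all genes tested. Some genes, S100a8 among them, pass the level filter only through the group in which they are high. These counts therefore describe the tested members and not the family.

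**Figure D1:**
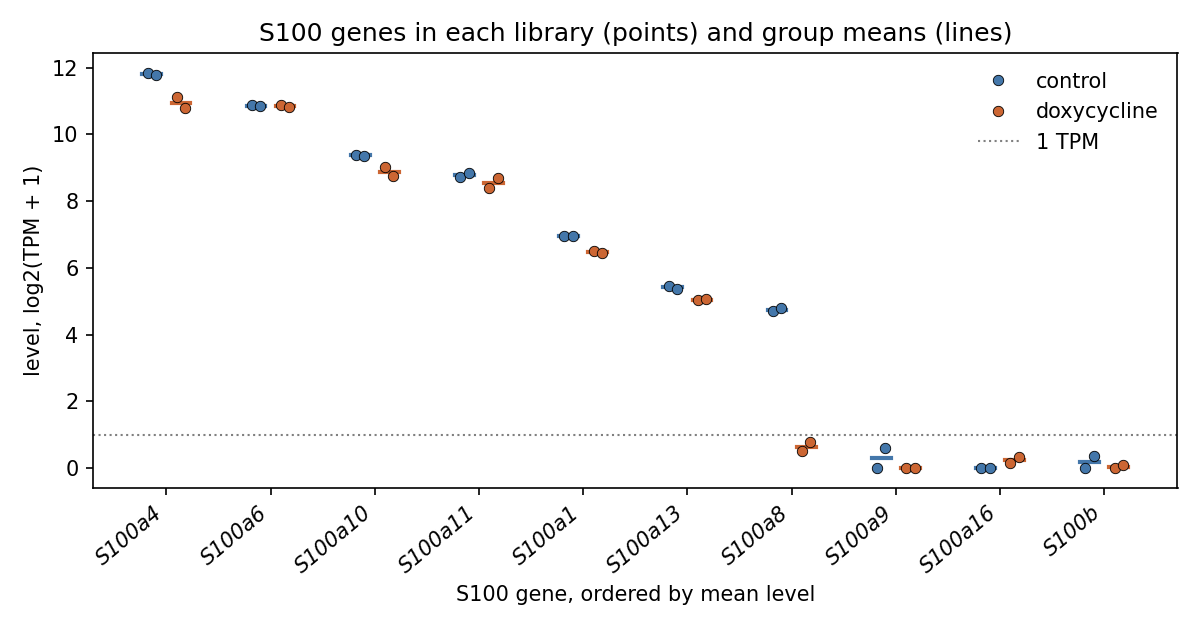
Level of each S100 gene as log2(TPM + 1) in every library, with points for libraries, short lines for group means and a dotted line at 1 TPM. S100a8 drops from 25.0 and 26.7 TPM in the controls to 0.431 and 0.710 TPM under doxycycline, S100a4 shows a clear gap at the top of the scale, and the points of S100a6 coincide.

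S100a8 encodes the smaller chain of calprotectin, a metal-sequestering heterodimer with S100A9 that acts as an alarm signal at sites of inflammation. It was at 25.0 and 26.7 TPM in control libraries against 0.431 and 0.710 TPM under doxycycline. Both treated libraries lay far below both controls. The mean went from 25.8 ± 1.24 to 0.570 ± 0.197 TPM, which is 45.3-fold lower. S100a8 thus passed the level filter of 1 TPM only through its controls. On the log2(TPM + 1) scale, which understates changes that end near 0, S100a8 changed by -4.10 (SE 0.13, limma adjusted p = 3.2e-08), and only 16 of the 11359 genes tested had a lower value. With a pseudocount of 0.1 the value was -5.31 and on FPKM -2.97, so its size depends on the offset while the call does not.

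S100a9, which encodes the other chain of calprotectin, was at 0 in control replicate 1 and in both doxycycline libraries, and at 0.534 TPM in control replicate 2. In the controls S100a8 was thus listed without a matching level of its usual partner. Markers of neutrophils, where both genes are abundant, were at or near 0 as well: 8 of 11 were at 0 in all 4 libraries, among them Ly6g, Mpo, Ltf and Csf3r, and the list summed to 0.379 and 0.846 TPM in control libraries against 0.407 and 0.0442 TPM under doxycycline. Of 10 macrophage markers, Lyz2 and Fcer1g were tested and did not pass (limma adjusted p = 0.76 and 0.68), Laptm5, C1qa and C1qc were at 0 in all libraries, and the list summed to 4.41 to 5.25 TPM in control libraries against 3.77 to 5.07 TPM under doxycycline. In bulk RNA, fewer cells of a type and less RNA per cell cannot be told apart.

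The promoter of S100a8 is printed because it belongs to the member with the largest change, and that of S100a4 because it belongs to the most abundant member and the next largest change. Both are RefSeq sequences of build GRCm38.p6, from 250 bases before to 50 after the start of the gene, on the plus strand of chromosome 3. This build is earlier than the mm39 of the expression tables, so the coordinates hold for GRCm38.p6 only. S100a8 lies at chr3:90668821-90669120 and S100a4 at chr3:90603520-90603819. Capitals mark TATAAA, the letters of a TATA box.
S100a8: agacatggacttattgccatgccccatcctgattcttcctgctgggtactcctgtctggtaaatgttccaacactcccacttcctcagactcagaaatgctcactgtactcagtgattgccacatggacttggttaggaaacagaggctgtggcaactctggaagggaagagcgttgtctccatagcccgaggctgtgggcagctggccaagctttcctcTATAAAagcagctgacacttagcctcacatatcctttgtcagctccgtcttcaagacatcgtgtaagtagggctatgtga
S100a4: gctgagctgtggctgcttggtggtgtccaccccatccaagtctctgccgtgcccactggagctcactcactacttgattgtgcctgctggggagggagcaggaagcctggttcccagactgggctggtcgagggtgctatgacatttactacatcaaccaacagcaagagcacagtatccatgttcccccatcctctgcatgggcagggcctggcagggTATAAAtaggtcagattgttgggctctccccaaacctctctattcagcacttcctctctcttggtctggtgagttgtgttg

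In S100a8 the TATAAA began 30 bases before the annotated start and in S100a4 it began 31 bases before it. These 5 motifs were sought on both strands of the windows of 9 members: TATAAA, the AP-1 site TGAGTCA, the NF-kappaB pattern GGANTTTCC, the C/EBP pattern TTGCNNAA and the GC box GGGCGG, none of which marks a bound site. TATAAA was found in 3 of 9 members (S100a4, S100a8 and S100a9) and in 13.6% of 32851 mouse windows of that length. Members are counted by gene, over 10 windows in all, while the mouse share counts windows. In S100a9 TATAAA began 0 bases before the annotated start, unlike in S100a4 and S100a8. The C/EBP letters were found in S100a9 alone among the members and in 10.8% of all windows. GC boxes stood in S100a9, S100a11 and S100a16, beside 35.7% of all windows. GGANTTTCC was in 0 of 9 members and in 1.25% of all windows.

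S100a4, whose protein binds non-muscle myosin IIA and loosens its filaments, was the most abundant of the family in the controls. It was at 3678 and 3545 TPM in control libraries against 2203 and 1760 TPM under doxycycline. The groups did not overlap, and the treated libraries differed from each other more than the controls did. The mean fell from 3611 ± 94.0 to 1981 ± 313 TPM, with a log2 change of -0.87 and SE 0.11 (limma adjusted p = 9.8e-05). By mean TPM it ranked 12 among all genes in the controls and 28 under doxycycline. A GENCODE M21 gene, Gm42674, overlaps S100a4 on the same strand and shares exon sequence with it, so the level of S100a4 may include its reads. Myh9, the heavy chain of non-muscle myosin IIA, went from 580 ± 18.6 to 499 ± 24.5 TPM (log2 change -0.22, limma adjusted p = 0.016).

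S100a4 is also used as a fibroblast gene, so fibroblast markers are given beside it. Of 8 such markers, 4 were tested, 0 were higher and 3 were lower, where 29.0% and 35.4% of all genes tested were, with the list summing to 4003 and 4154 TPM in control libraries against 881 and 801 TPM under doxycycline. Pdgfra, a platelet-derived growth factor receptor, had a log2 change of -3.51, Dcn (decorin) of -2.74 and Col3a1 of -0.74. Col1a1, a chain of type I collagen, did not pass (0.15, limma adjusted p = 0.52). Thy1 was at 0 in all libraries, and Col1a2, Lum and Fap were below 1 TPM in each. Their part in the S100a4 result was not tested.

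S100a6, or calcyclin, binds the ubiquitin ligase partner CacyBP and several annexins, and its gene is a close neighbour of S100a4 on chromosome 3. It was at 1878 and 1848 TPM in control libraries against 1876 and 1792 TPM under doxycycline. The groups overlapped. With means of 1863 ± 21.3 and 1834 ± 59.6 TPM, its log2 change was -0.023 with a 95% interval from -0.19 to 0.14 (limma adjusted p = 0.80). Median-of-ratios scaling and quantile normalization turned that value to 0.046 and 0.016. S100a6 ranked 34 among all genes in both groups.

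The ratio of S100a4 to S100a6 is taken within a library and does not depend on its scaling. It was 1.96 and 1.92 in control libraries against 1.17 and 0.982 under doxycycline. Both treated libraries had less S100a4 per S100a6 than either control. Together these genes made up 78.7% to 81.2% of the summed TPM of all 10 members, but S100a4 went from 53.7% and 52.9% of the sum to 43.6% and 39.0%. The 10 members summed to 6846 and 6699 TPM in control libraries against 5054 and 4516 TPM under doxycycline. With 2 libraries against 2, the smallest p of an exact two-sided permutation test is 0.33, so these ratios are given without a test.

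**Figure D2:**
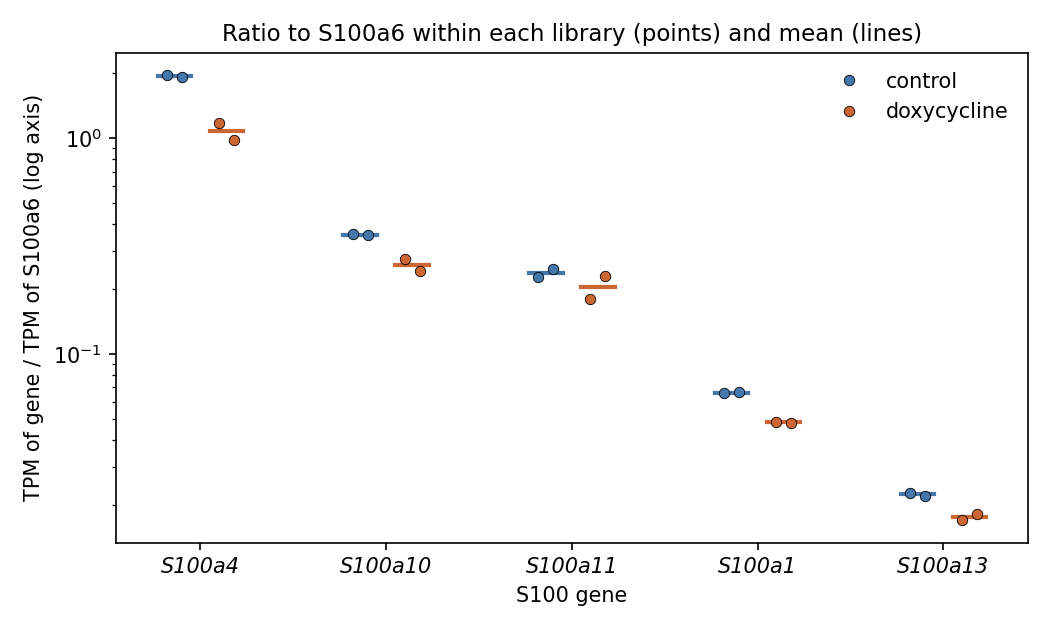
TPM of 5 S100 genes divided by the TPM of S100a6 in the same library, on a log axis, with points for libraries and lines for group means. S100a4, S100a10, S100a1 and S100a13 have both doxycycline libraries below both controls, while for S100a11 the points overlap, with 0.226 and 0.248 in control libraries against 0.179 and 0.230 under doxycycline.

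S100a10 and S100a11 encode further annexin-binding members. S100A10 does not bind calcium, joins annexin A2 in a heterotetramer at the plasma membrane and helps to activate plasminogen there. S100a10 was at 673 and 656 TPM in control libraries against 516 and 432 TPM under doxycycline. Its groups were apart, with means of 665 ± 11.9 and 474 ± 59.4 TPM and a log2 change of -0.49 with SE 0.08 (limma adjusted p = 7.7e-04). Anxa2, which encodes its partner, was at 1337 and 1278 TPM in control libraries against 1326 and 1196 TPM under doxycycline, which overlap (log2 change -0.054, limma adjusted p = 0.56, turning to 0.015 under median-of-ratios scaling and to 0.012 under quantile normalization). The ratio of S100a10 to Anxa2 within a library was 0.504 and 0.513 in control libraries against 0.389 and 0.361 under doxycycline, so both treated libraries held less S100a10 per Anxa2 transcript.

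S100a11, whose protein binds annexin A1, was at 425 and 459 TPM in control libraries against 336 and 413 TPM under doxycycline. The lower control and the higher treated library were only 425 and 413 TPM. Means of 442 ± 23.5 and 374 ± 54.0 TPM gave a log2 change of -0.24 with SE 0.09 (limma adjusted p = 0.044). The call was lost in 6 of 14 alternative settings, also without the level filter or the variance trend, with adjusted p between 0.0020 and 0.41 over all of them. Without doxycycline replicate 1 the change was -0.10 (limma adjusted p = 0.41), without control replicate 1 it was -0.30 (0.079), without control replicate 2 -0.19 (0.22) and under median-of-ratios scaling -0.18 (0.13). S100a11 also has a near-identical processed pseudogene in the table, Gm12854, with 99.0% identity over 297 bases, so its single value is uncertain.

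The promoter of S100a11 is printed because it was the sole member window with the AP-1 letters, which occur in 5.20% of all mouse windows. It lies at chr3:93520246-93520545 on the plus strand of GRCm38.p6, and capitals mark TGAGTCA and GGGCGG.
S100a11: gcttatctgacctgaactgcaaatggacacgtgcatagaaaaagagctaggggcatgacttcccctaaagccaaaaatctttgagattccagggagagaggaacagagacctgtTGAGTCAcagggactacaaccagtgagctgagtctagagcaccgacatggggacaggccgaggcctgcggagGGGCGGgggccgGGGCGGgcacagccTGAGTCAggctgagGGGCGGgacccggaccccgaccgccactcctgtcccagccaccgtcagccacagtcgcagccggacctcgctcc

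The AP-1 letters began 136 and 38 bases before the annotated start, and GC boxes began 64, 52 and 24 bases before it.

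S100a1 and S100a13 lie head to head, and their windows share sequence. S100A1 is known from muscle, where it acts on calcium pumps and release channels, and S100A13 takes part in the export of FGF1 and interleukin 1 alpha. S100a1 was at 124 and 123 TPM in control libraries against 90.7 and 86.0 TPM under doxycycline. S100a13 was at 42.8 and 40.6 TPM in control libraries against 31.7 and 32.5 TPM under doxycycline. In both genes the groups were apart, and libraries of a group lay close together. The log2 change was -0.48 with SE 0.06 for S100a1 (limma adjusted p = 1.1e-04) and -0.37 with SE 0.07 for S100a13 (limma adjusted p = 0.0015). The ratio of S100a1 to S100a13 was 2.90 and 3.02 in control libraries against 2.86 and 2.65 under doxycycline, with the higher treated library just below the lower control.

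The RefSeq window of S100a13 is printed because it holds the starts of both genes. It lies at chr3:90514185-90514484 on the plus strand of GRCm38.p6, and capitals run from the first base of S100a1, which is read leftwards from the minus strand, to the first base of S100a13, which is read rightwards.
S100a13: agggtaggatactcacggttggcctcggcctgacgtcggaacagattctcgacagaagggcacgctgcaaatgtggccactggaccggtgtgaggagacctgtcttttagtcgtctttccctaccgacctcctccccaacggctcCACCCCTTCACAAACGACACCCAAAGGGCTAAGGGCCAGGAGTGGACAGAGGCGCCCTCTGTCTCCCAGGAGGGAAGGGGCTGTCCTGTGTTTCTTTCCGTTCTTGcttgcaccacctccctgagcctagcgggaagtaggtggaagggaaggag

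The annotated starts are 105 bases apart, and none of the 5 motifs was found in the window of either gene.

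The remaining members were at or near 0. S100a16, a widely expressed member that binds calcium weakly, was at 0 in both controls and at 0.111 and 0.265 TPM under doxycycline. S100b, best known from glia and melanocytes, was at 0 and 0.295 TPM in control libraries against 0 and 0.0723 TPM under doxycycline. With S100a9 these were the 3 members under the level filter of the test, and no fold change is given for them. Of the 6 listed glial and melanocyte markers, Sox10 was at 0 in all libraries. Pmel, a pigment cell protein, was tested and did not pass (-0.089, limma adjusted p = 0.71).

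Of the listed S100 genes, 14 lie on chromosome 3 in GENCODE M21, among them 9 of the 10 members, and S100b lies on chromosome 10. Neighbours in this order had changes of unlike size, a difference that was not tested. S100a4 and S100a6 enclose S100a5 and had log2 changes of -0.87 and -0.023, and S100a7a, next to S100a8, had -0.64 against -4.10. S100a7a, a psoriasin relative, was at 5.99 and 5.81 TPM in control libraries against 3.41 and 3.41 TPM under doxycycline (limma adjusted p = 0.0012). Among the 8 S100 genes that are not members, 4 were at 0 in all libraries. Of the 3 tested, 0 were higher and 1 was lower, beside 29.0% and 35.4% of all genes tested, so the share lower lies near that of all genes. S100a3, a hair cuticle protein, did not pass (0.27, limma adjusted p = 0.41), nor did S100a5 (-0.32, limma adjusted p = 0.45), and the libraries of both overlapped. Without control replicate 1 S100a3 was higher (0.75, adjusted p = 0.019), and without doxycycline replicate 1 S100a5 was lower (-0.92, adjusted p = 0.0057).

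**Figure D3:**
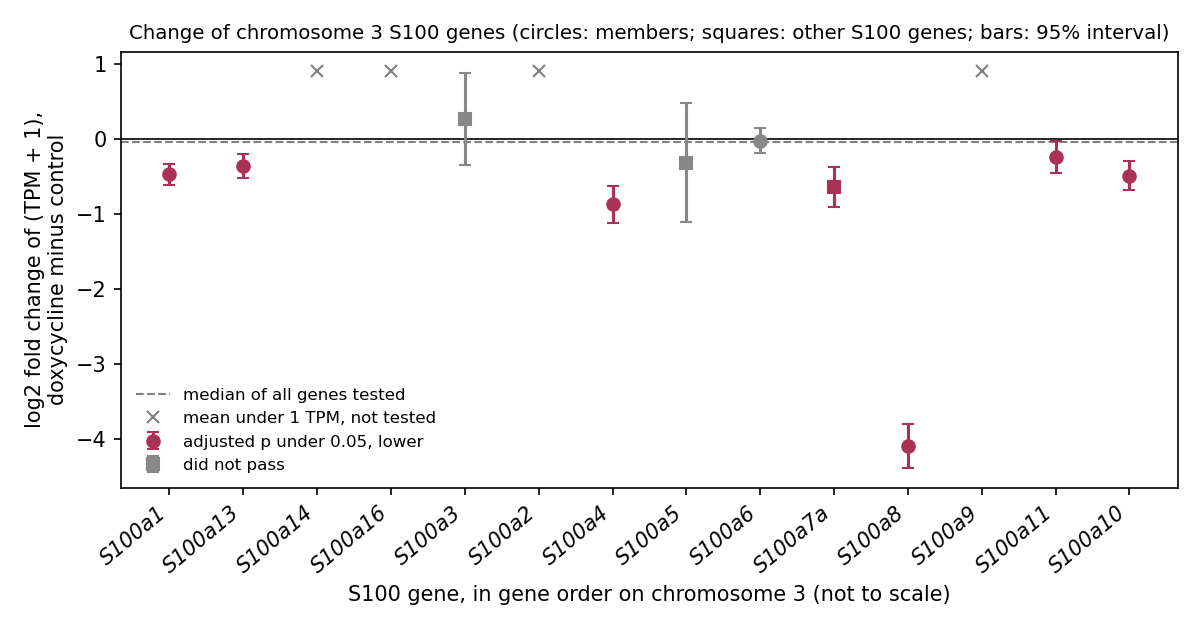
Log2 fold change of (TPM + 1), doxycycline minus control, of the chromosome 3 S100 genes in gene order, with 95% intervals from limma, circles for members, squares for other S100 genes and crosses, placed at an arbitrary height, for genes with a mean below 1 TPM. S100a8 stands at -4.10, the other called genes between -0.24 and -0.87, and the intervals of S100a3, S100a5 and S100a6 cross 0.

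Binding partners and receptors were described as gene lists. Annexins, which bind membranes and calcium and are the best known S100 partners, were called in both directions. Of 10 tested, 2 were higher and 6 lower, beside 29.0% and 35.4% of all genes tested, with a median log2 change of -0.23. Anxa6 fell from 87.9 ± 0.242 to 38.3 ± 3.46 TPM (log2 change -1.18), and Anxa1, which binds S100A11, from 1946 ± 86.7 to 1007 ± 119 TPM (-0.95). Anxa3 rose from 212 ± 9.03 to 409 ± 13.1 TPM (0.94) and Anxa9 from 8.71 ± 0.208 to 15.0 ± 0.203 TPM (0.72). These 4 passed with limma adjusted p between 1.5e-06 and 1.2e-04. Without doxycycline replicate 2, 3 annexins instead of 6 were lower.

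Of 11 other intracellular partners tested, 5 were higher and 4 lower, where 29.0% and 35.4% of all genes tested were, and the median was 0.13. The share of them that was lower lies near that of all genes. Trp53, the tumour suppressor p53, rose (log2 change 0.75), as did Ahnak, a giant scaffold that binds the S100A10 and annexin A2 complex (0.67), and Atp2a2, the calcium pump of the endoplasmic reticulum (0.51). Tagln2, the actin-binding transgelin 2, fell (-0.84). The highest adjusted p of these 4 in limma was 7.5e-05. Cacybp, which encodes the partner of S100A6, did not pass (0.12, limma adjusted p = 0.10). Fgf1 and Il1a, whose products S100A13 helps to export, were below 1 TPM in every library.

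Of 9 tested receptors and adaptors reported for released S100 proteins, 1 was higher and 7 were lower, beside 29.0% and 35.4% of all genes tested, with a median of -0.41. Cd14, a co-receptor of TLR4, was at 36.0 and 36.5 TPM in control libraries against 6.01 and 6.40 TPM under doxycycline (log2 change -2.37, limma adjusted p = 7.0e-08). Tlr4 itself, a receptor for S100A8 and S100A9, was at 32.3 and 39.5 TPM in control libraries against 18.7 and 18.5 TPM under doxycycline (-0.91, limma adjusted p = 4.4e-05). The adhesion receptors Mcam and Alcam also fell (-1.18 and -0.74, limma adjusted p = 2.5e-04 and 6.5e-05). Mcam was low, at 2.72 and 3.57 TPM in control libraries against 0.919 and 0.731 TPM under doxycycline. It passed the level filter only through its controls. Ager, which encodes RAGE, was at 2.31 and 1.37 TPM in control libraries against 1.90 and 1.55 TPM under doxycycline and did not pass (-0.042, limma adjusted p = 0.86). Myd88, the adaptor below TLR4, was the member of this list that rose (0.48, limma adjusted p = 9.4e-04).

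Among the genes of plasminogen activation, a process that S100A10 assists at the cell surface, 3 of 6 were tested. Plat, the tissue-type activator, fell from 15.0 ± 1.47 to 3.16 ± 0.537 TPM (log2 change -1.94, limma adjusted p = 2.0e-06). Plaur, the receptor of the urokinase-type activator, rose from 50.3 ± 1.26 to 74.6 ± 2.78 TPM (0.56, limma adjusted p = 6.7e-05). Plau and Plg, which encode that activator and plasminogen, were at 0 in all 4 libraries.

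**Figure D4:**
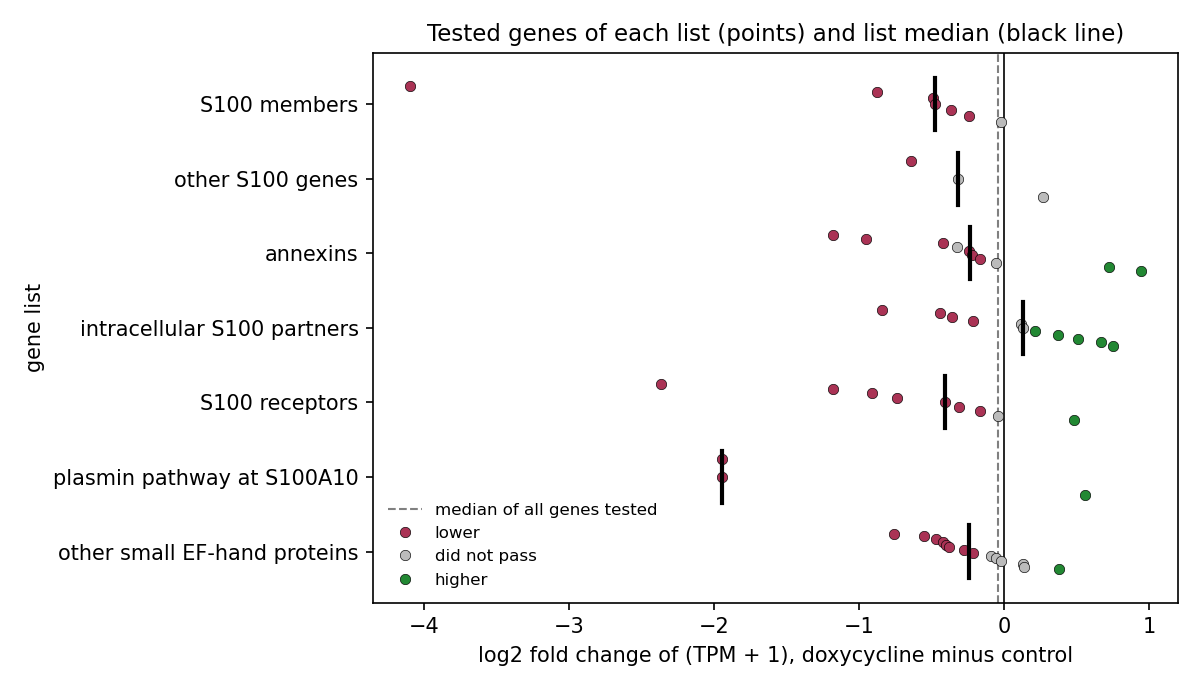
Log2 fold change of (TPM + 1), doxycycline minus control, of every tested gene in 7 lists, coloured by call, with a black line at each list's median and a dashed line at the median of all genes tested, -0.043. Medians run from -1.94 for the 3 plasminogen activation genes to 0.13 for the intracellular partners, and the S100 members stand at -0.48.

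The genes whose pattern over the 4 libraries was nearest to that of S100a8 were Prl2c2, Slpi and Trib2, at Euclidean distances of 0.342, 0.371 and 0.384 between log2(TPM + 1) values centred on the control mean. Prl2c2, a prolactin-family gene, was at 405 and 475 TPM in control libraries against 28.4 and 26.0 TPM under doxycycline. Slpi, a secreted protease inhibitor, was at 139 and 130 TPM in control libraries against 7.80 and 6.54 TPM under doxycycline. Trib2, a pseudokinase, was at 39.7 and 42.4 TPM in control libraries against 1.18 and 1.06 TPM under doxycycline. With 4 libraries in 2 groups, likeness of this kind reflects mainly a similar size of change. Prl2c2 belongs to a family of close copies, so its single value is uncertain.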

How the data were processed

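RNA was measured in 4 libraries, 2 per group, grouped by sample title. The authors deposited one table of TPM and one of FPKM, per the file headers, each with a gene symbol per row. The submitters' processing notes name build mm39. Which aligner, quantifier and annotation were used is not given in the sources used here. Low FPKM showed no whole-read steps, so counts could not be recovered.

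A gene entered the test where its mean reached 1 TPM. The test was run in R 4.3.3 with limma 3.58.1 (lmFit, eBayes with a mean-variance trend) on log2(TPM + 1), without covariates, and called at a Benjamini-Hochberg adjusted p under 0.05 over all genes tested. The fit had 2 residual and 6.98 prior degrees of freedom. Fold changes in TPM are ratios of group means. Python 3.11.15 was used for sequences and figures.

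The members and lists were chosen with earlier results of these data known. Named genes are the members, Anxa2, Cxcl14, up to 4 tested genes of each list with the largest change, markers at or near 0, and the 3 genes nearest to the member with the largest change. Myh9, Cacybp, Fgf1, Il1a, Ager, Myd88, Plau, Plg, Calm2, Pdcd6 and Gm12854 are named outside that rule, after their values were seen. Some listed genes are not reported here. Alternatives were pseudocounts of 0.1 and 0.5, other filters, FPKM, median-of-ratios and quantile scaling, other variance models, a block by replicate number, and leaving out each library.

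Promoters came from RefSeq (GRCm38.p6) by symbol, for 9 of 10 members. blastn 2.17.0 searched for near-identical copies among GENCODE M21 transcripts, at 97% identity over at least 100 bases. GENCODE M21 is of an earlier build than mm39 and gave order, overlaps and copies only.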

Additional observations from a re-analysis of the deposited data

How the results depend on the processing

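The S100 members called lower numbered 5 or 6, and those called higher 0, in all 14 alternative settings. S100a1, S100a4, S100a8, S100a10 and S100a13 stayed lower and past the threshold in all 14. With each library left out in turn, 2776 to 3077 of all genes tested were higher and 3473 to 3656 lower. The members lower then numbered 5 to 6, other S100 genes 0 to 1 higher and 1 to 2 lower, annexins 2 higher and 3 to 5 lower, intracellular partners 4 to 5 higher and 3 to 4 lower, receptors 1 higher and 6 lower, plasminogen activation genes 1 higher and 2 lower, and other small EF-hand proteins 1 to 3 higher and 7 to 8 lower. With a minimum mean of 5 TPM, 0 of the other S100 genes were lower, as 1 was left to test, and under median-of-ratios scaling 3 small EF-hand proteins were higher instead of 1, where the cause was not tested. The 2 scalings moved the median change of all genes by 0.067 (median-of-ratios) and 0.084 (quantile).

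Some values that did not pass changed sign, with a log2 change of 0.046 for S100a6 and 0.015 for Anxa2 under median-of-ratios scaling. Under quantile normalization S100a6 was at 0.016, Anxa2 at 0.012, S100a5 at 0.057, the macrophage markers Fcer1g at 0.27 and Lyz2 at 0.28, and Pmel at 0.25. With each library left out in turn, S100a6 ranged from -0.057 to 0.0098, Anxa2 from -0.13 to 0.020, S100a5 from -0.92 to 0.29, S100a3 from -0.22 to 0.75, Fcer1g from -0.21 to 0.037, Lyz2 from -0.26 to 0.13, Col1a1 from -0.12 to 0.42 and Pmel from -0.31 to 0.14. The cause of these changes was not tested.

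With the replicate number as a block, 6 members were lower and 0 higher, and 3387 genes were higher and 4114 lower. Deviations of same-numbered libraries did not go together (r = -0.0053 across 11359 genes). With so few libraries this cannot decide whether same-numbered cultures were paired, which the sample titles do not say. Depth is unknown and limits what can be said of S100a9, S100a16 and S100b.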

Other observations

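Other small EF-hand proteins, calcium binders outside the S100 family, were described for comparison. Of 14 genes, all tested, 1 was higher and 8 were lower, beside 29.0% and 35.4% of all genes tested, with a median log2 change of -0.24 beside -0.043 over all genes tested. Rcn3, a chaperone-like protein of the secretory pathway, was at 195 and 187 TPM in control libraries against 118 and 106 TPM under doxycycline (-0.76, limma adjusted p = 1.2e-05), and its relative Rcn2 fell by 0.42 (limma adjusted p = 5.7e-04). Calm2 and Calm3, which encode the calcium sensor calmodulin, were lower, with log2 changes of -0.38 and -0.55 (limma adjusted p = 4.4e-04 and 8.4e-05). Pdcd6, which encodes ALG-2, an adaptor of membrane repair and trafficking, was the gene called higher (0.38, limma adjusted p = 5.1e-04). Under median-of-ratios scaling, 3 genes of this list were higher.

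The S100-fused proteins of cornified epithelium, such as filaggrin (Flg) and trichohyalin (Tchh), were at or near 0. Of 7 genes, 5 were at 0 in all libraries, and the list summed to 0.0349 and 0.127 TPM in control libraries against 0.106 and 0.0645 TPM under doxycycline. The pseudogene Gm12854 of S100a11 was at 9.16 and 8.08 TPM in control libraries against 6.14 and 6.31 TPM under doxycycline, while S100a11 itself was at 336 TPM or more in each.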
